A study of Mus musculus with 12 samples.

Results

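The genes described here build and run the vesicle traffic between the endoplasmic reticulum (ER) and the Golgi: the COPII and COPI coats, the KDEL receptors, the p24 family, cargo receptors, and the SNAREs and tethers of vesicle fusion. The set holds 44 listed genes, each found by its symbol in the platform annotation, and all 44 were on the array. Each gene was read from 1 probe set, the one with the highest mean over the 12 arrays, and 28 of the 44 had more than 1 to choose from. Of the 44, 42 were among the 14569 genes tested. Kdelr3 and Tmed2 were too dim to pass the filter on low signal.

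The study profiled livers of Ire1α null and control mice on Affymetrix arrays, with and without ER stress. The groups were null livers with tunicamycin (Fe-CRE+Tm), control livers with tunicamycin (Fe+CRE+Tm), null livers with vehicle (Fe-CRE+) and control livers with vehicle (Fe+CRE+), with 3 mice labelled as biological replicates in each. All animals were C57Bl/6J mice, 3 months old, and both genotypes carry CRE+ in their titles. The null is described as conditional, but the sources used here give neither the promoter that drives Cre nor the deleted part of the gene. Tunicamycin, an inhibitor of N-linked glycosylation that leaves unfolded protein in the ER, was injected into the peritoneum at 2 µg per g of body weight. The vehicle was 150 µM dextrose, and livers were taken 8 h later in all groups.

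Secretory and membrane proteins leave the ER in COPII vesicles, whose inner shell of Sec23 and Sec24 selects cargo and whose outer cage is made of Sec13 and Sec31. The COPI coat, recruited by ARF GTPases, carries escaped ER proteins and empty receptors back. The liver exports albumin, clotting factors and lipoproteins through this route, and Ire1α, encoded by Ern1, splices the transcript of Xbp1, a transcription factor known for its effect on secretory pathway genes.

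Values are log2 levels after quantile normalization of log2(deposited intensity + 16), so a difference of 1 is 2-fold, and differences of low genes are understated. Differences between genotypes are null minus control, and responses are tunicamycin minus vehicle. All are given ± their limma standard error with n = 3 in each group. Called genes are those whose limma p, adjusted by Benjamini-Hochberg over all genes tested, was under 0.05. The number of arrays limits the precision. In whole liver, fewer cells of a type and less RNA per cell cannot be told apart.

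Promoter sequence was looked up in RefSeq (GRCm38.p6) for the 39 members it matched. The unfolded protein response element, TGACGTGG, was found on either strand in the stretch around the start that RefSeq gave, mostly upstream of it, in 7 of the 39, a share of 17.9%. The 7 were Arf1, Copb1, Copb2, Gbf1, Kdelr3, Sec23a and Sec24d. The same letters occurred in 1.04% of the 11658 tested genes with a promoter, and in 0.676% of all 32851 promoters. The 90 bases before the start are shown for the 4 genes that held a match there and passed the test both with tunicamycin in control livers and between genotypes with tunicamycin (Kdelr3 only where dim probe sets were kept). They are written 5′ to 3′ on the gene's strand, with the element, read on that strand or as its reverse complement CCACGTCA, in capitals.
Sec24d: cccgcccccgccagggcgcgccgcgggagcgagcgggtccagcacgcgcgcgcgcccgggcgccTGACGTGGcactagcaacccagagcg
Copb1: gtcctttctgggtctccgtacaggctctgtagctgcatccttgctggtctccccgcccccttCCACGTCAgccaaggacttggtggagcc
Gbf1: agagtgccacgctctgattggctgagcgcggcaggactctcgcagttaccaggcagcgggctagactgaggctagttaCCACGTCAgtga
Kdelr3: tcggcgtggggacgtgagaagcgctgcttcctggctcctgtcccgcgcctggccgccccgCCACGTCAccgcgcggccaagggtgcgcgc
The stretches lie at chr3:123267406-123267495 (plus strand) for Sec24d, chr7:114254681-114254770 (minus strand) for Copb1, chr19:46152468-46152557 (plus strand) for Gbf1 and chr15:79516318-79516407 (plus strand) for Kdelr3. The shorter core CCACG, which is part of that element on its reverse strand, was present in 30 of the 39 members (76.9%) and in 48.9% of tested genes. The ER stress element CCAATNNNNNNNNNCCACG, which ends in that core, was found in 0 of the 39 members and in 0.146% of tested genes, and its variant ERSE-II in 0 members and 0.0686% of tested genes. The cyclic AMP response element TGACGTCA was found in 1 member, Cope (2.56%), and in 3.16% of tested genes. Among members with a promoter, TGACGTGG was present in 5 of the 26 that rose with tunicamycin in control livers and in 1 of the 12 others that were tested, and in 4 of the 22 that were lower in null livers with tunicamycin and 2 of the 16 others.

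Signal and quality differed between arrays in ways that bear on several values. The trimmed mean of the deposited intensities ran between 228 and 303. Null tunicamycin replicate 2 carried kidney transcripts: 14 of 19 kidney markers on the array lay more than 1 (log2) above every other array there, and the summed kidney signal reached 38680 on it, against 735 at most in control tunicamycin livers. The numbers of members called in comparisons with that group are therefore given also without it, and other counts are over all arrays. The 5' to 3' ratio of the Gapdh control probe sets, a measure of RNA integrity, was 0.370 to 0.435 in null tunicamycin and 0.523 to 0.577 in control tunicamycin arrays, with no overlap. The actin ratio was 0.296 to 0.389 in control tunicamycin and 0.454 to 1.10 in control vehicle arrays, also with no overlap. Hepatocyte markers summed to 125700 to 130700 in all groups. Most of them lay at the top of the scale, where quantile normalization gives every array nearly the same values. Their sum therefore cannot show whether hepatocyte content was equal. The 8 Kupffer cell and macrophage markers summed to 3838 to 7975 in null tunicamycin and 6997 to 8866 in control tunicamycin livers, and to 5991 to 9199 in null vehicle and 7787 to 12380 in control vehicle livers. Of these 8, Adgre1 fell with tunicamycin in both genotypes, by 0.81 in null and by 0.75 in control livers (limma adjusted p = 0.0195 in each). Null minus control was below 0 for all 8 with tunicamycin (-0.74 to -0.09) and with vehicle (-0.83 to -0.11), and none of these differences was called. Alas2, the 1 erythroid marker that was tested, fell with tunicamycin in both genotypes. The erythroid markers on the array summed to 263 to 623 in null tunicamycin and 341 to 515 in control tunicamycin livers, against 939 to 1182 in null vehicle and 665 to 985 in control vehicle livers, and the part of the macrophage and erythroid markers in the results was not tested. Of the other cell type lists, 1 kidney marker, Slc5a2, was called, as a fall in control livers. Ern1 itself was read by 5 probe sets. The brightest had 12.13, 11.18 and 11.76 in null tunicamycin and 11.71, 11.40 and 11.66 in control tunicamycin livers, and 10.76, 10.23 and 10.28 in null vehicle and 10.87, 10.50 and 10.31 in control vehicle livers. Null minus control was 0.10 ± 0.24 with tunicamycin (adjusted p = 0.934) and -0.13 ± 0.24 with vehicle (adjusted p = 0.969). Because the deleted part is not given, these probe sets do not check the genotype, which rests on the labels.

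In null livers tunicamycin raised 7 of the 42 tested members and lowered 4. Of all genes tested, 7.60% rose and 9.19% fell there, or 1107 and 1339 genes. That split turned with the scaling, giving 1251 rises and 703 falls once arrays shared 1 median, and 1477 and 512 for unscaled deposited values. The members had a median difference of 0.04, and all genes one of -0.07. Once arrays shared 1 median the members' value was 0.17, and for unscaled deposited values it was 0.25, against 0.01 and 0.08 over all genes. Rises of at least 2-fold numbered 2, Tmed3 and Uso1 (3.14% of all genes). All 3 tunicamycin arrays lay above all 3 vehicle arrays for 11 members (13.6% of all genes) and below them for 7 (19.4%). The 7 that rose were Mcfd2, Sec22b, Sec23a, Sec24d, Tmed3, Tmed9 and Uso1. The 4 falls, of Sar1b, Copz2, Ergic1 and Ergic3, all kept their direction but lost their calls when array medians were centred or values were used as deposited, which gave 9 and 10 rises with 0 falls. The count of 11 calls became 8 without null tunicamycin replicate 2 (4 rises and 4 falls), 5 without replicate 3 of that group, 4 without null vehicle replicate 1, 6 without its replicate 2 and 7 without its replicate 3. The 2446 calls over all genes became between 1611 and 2185 in these fits. Without null tunicamycin replicate 2 the rises of Sec22b, Sec23a, Sec24d and Tmed9 and the fall of Sar1b were not called, and a rise of Tmed5 and a fall of Tmed4 were. Only Tmed3, Uso1 and Mcfd2 kept their calls under every alternative apart from the 2-fold threshold.

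In control livers tunicamycin raised 30 of the 42 members and lowered 1, Copz2. The background there was 11.6% of all genes that rose and 13.3% that fell, or 1692 and 1943 genes, against 2102 and 1181 once arrays shared 1 median, and 2062 and 1068 for unscaled deposited values. The members' median difference was 0.81, and that of all genes was -0.11. At least 2-fold rises numbered 11 (5.42% of all genes), led by Tmed3, Sec22b, Uso1, Tmed9 and Sec24d. The tunicamycin arrays were separated upward from the vehicle arrays for 34 members (18.0% of all genes) and downward for 4 (24.5%). All 7 members that rose in null livers were among these 30. The 2 comparisons share no arrays, but both used 1 estimate of each gene's spread from all 12 arrays, so their calls are not independent. Of the other 23, whose null response was not a called rise, 4 had a called difference between the responses. Over all genes 5.99% rose in both genotypes. A further 820 genes (5.63%) rose in control livers without a called rise in null livers. Of those 820, 73 had a called difference below 0 between the responses (0.501% of all genes). With the actin ratio as a covariate 22 members rose and none fell, a count that was also 22 without control tunicamycin replicate 2. Of all genes, 984 rose and 782 fell with that covariate, and 1279 rose and 1303 fell without that array.

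With tunicamycin, null livers had lower levels than control livers for 24 of the 42 members and higher levels for 0, against backgrounds of 3.23% and 0.762%. The median difference was -0.80 for the members and 0.02 for all genes. A difference of at least 2-fold was reached by 15 (1.74% of all genes). For 35 members every null array lay below every control array (11.5% of all genes), and for 0 above (10.3%). The sign was negative for 41 of 42 members, or 97.6%, against 47.2% of all genes. Without the array that carried kidney transcripts 25 members were lower, and 23 were once the Gapdh ratio entered the fit as a covariate. Of all genes, 406 and 432 were lower in those fits, in that order.

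With vehicle, 0 of the 42 members passed the limma test between null and control livers, as did 0% of all genes in either direction. At an unadjusted p under 0.05 there were 2, Tmed3 at -0.64 ± 0.20 (adjusted p = 0.988) and Uso1 at -0.32 ± 0.13 (adjusted p = 0.988). That threshold was passed by 595 of all 14569 genes, a share near that of the members. The members' median was -0.05. All null vehicle arrays lay below all control vehicle arrays for 5 members (4.41% of all genes), which were Bet1, Surf4, Tmed3, Tmed4 and Uso1, and above them for 0 (3.76%).

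The difference between the responses, null minus control, was tested as the interaction of genotype and treatment. It was below 0 for 41 of 42 members (97.6%, against 45.7% of all genes), with a median of -0.70 (0.03 over all genes), and passed for 7, all negative: Bet1, Tmed3, Sec22b, Sec24d, Surf4, Sec16a and Cope. Over all genes 0.824% passed below 0 and 0.0137% above. Of the 7, 6 were at least 2-fold (0.776% of all genes). These 7 calls were sensitive to single arrays, as were those over all genes. The 122 genes called in the main fit became 14 to 46 in the fits that left 0 members called. The count was 0 without control tunicamycin replicate 1 or 2, null tunicamycin replicate 1, control vehicle replicate 3, or null vehicle replicate 1 or 3. It was 1 without control vehicle replicate 1, 3 without control tunicamycin replicate 3, null tunicamycin replicate 3 or control vehicle replicate 2, 4 without null vehicle replicate 2, and 9 without null tunicamycin replicate 2.

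**Figure D1:**
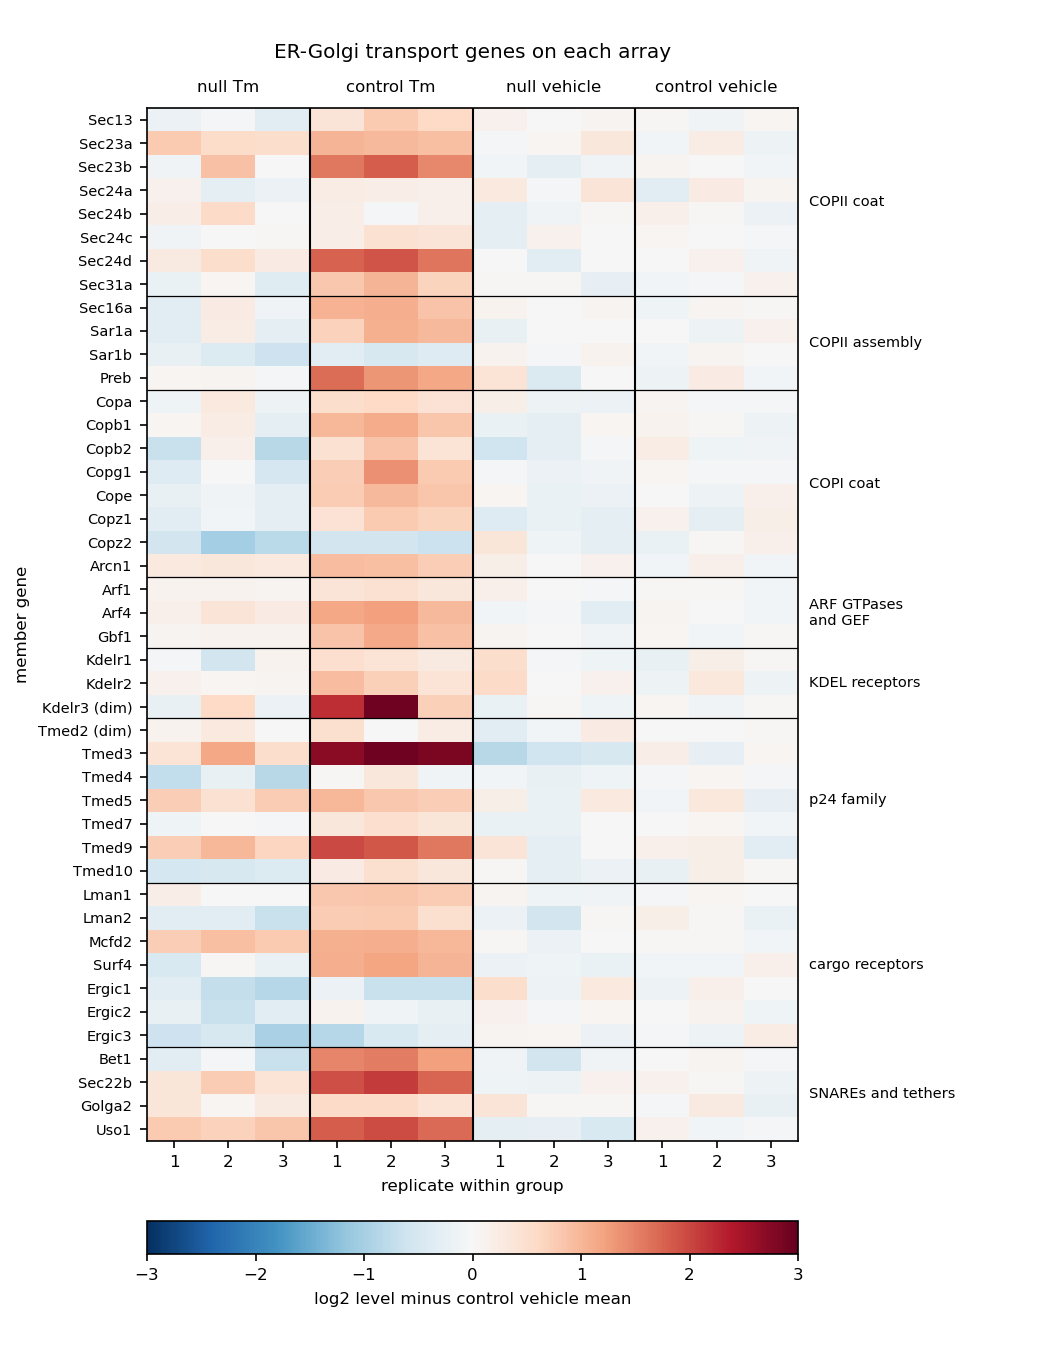
Levels of the 44 genes on the 12 arrays, as the log2 level minus the mean of the control vehicle livers, with the genes grouped by role and the dim genes marked. The control tunicamycin columns are mostly above 0, with 30 of 42 tested members called up, and the null tunicamycin columns are mixed, with 7 called up and 4 down.

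**Figure D2:**
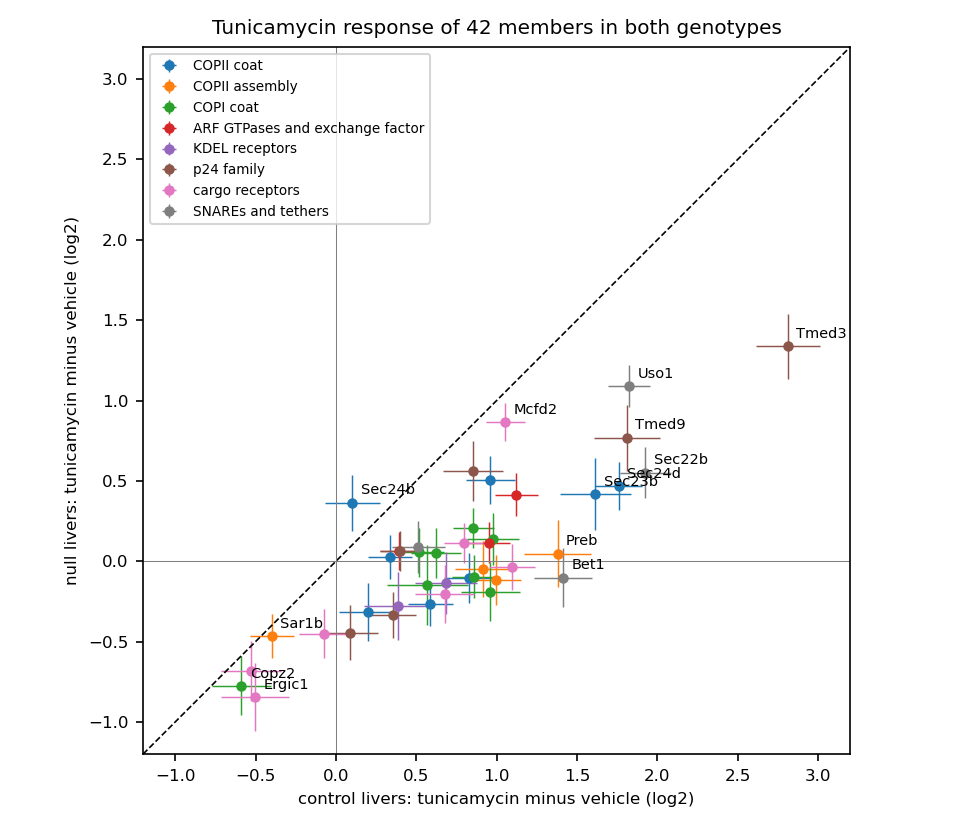
Tunicamycin minus vehicle in null livers (vertical, log2) against the same in control livers (horizontal, log2) for the 42 tested members, with bars of 1 SE and a dashed line of equal response. Of the members, 41 lie below the line, and Tmed3 has the highest value in both genotypes, at 1.34 in null and 2.81 in control livers.

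Among the 8 COPII coat genes, 2 rose in null livers and 5 in control livers with tunicamycin. With tunicamycin 4 were lower in null than in control livers. For this and each later role count, the shares of all genes are the comparison. They were 7.60% up and 9.19% down in null livers, and 11.6% and 13.3% in control livers. Between genotypes with tunicamycin 3.23% were lower. In groups this small 1 gene is a large share, so single calls say little about a role. Sec24d encodes a cargo-binding subunit of the inner shell. It measured 10.61, 10.88 and 10.58 in null tunicamycin and 12.12, 12.23 and 11.96 in control tunicamycin livers, and 10.34, 10.01 and 10.32 in null vehicle and 10.33, 10.46 and 10.23 in control vehicle livers. The control tunicamycin arrays stood above all others, and the null tunicamycin arrays stood just above the vehicle arrays. Sec24d rose by 0.47 ± 0.15 (adjusted p = 0.0493) in null livers and by 1.76 ± 0.15 (adjusted p = 7.08e-06) in control livers, and null minus control with tunicamycin was -1.41 ± 0.15 (adjusted p = 0.000368). The difference between the responses was -1.29 ± 0.21 (adjusted p = 0.0175). The call in null livers was lost whichever of the 6 arrays was left out. In deposited intensity units Sec24d averaged 1747 ± 37.0 in null and 4808 ± 465 in control livers with tunicamycin, and 1061 ± 77.9 in null and 1214 ± 136 in control livers with vehicle (SD, n = 3 each).

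The other Sec24 genes, which encode isoforms with their own cargo preferences, were not called in any comparison. Sec24a measured 12.19, 11.77 and 11.90 in null tunicamycin and 12.30, 12.26 and 12.23 in control tunicamycin livers, and 12.36, 12.01 and 12.44 in null vehicle and 11.73, 12.31 and 12.15 in control vehicle livers. Its control tunicamycin arrays overlapped with control vehicle, where 1 array was low. The response of Sec24a was -0.32 ± 0.18 (adjusted p = 0.271) in null and 0.20 ± 0.18 (adjusted p = 0.471) in control livers. For Sec24b it was 0.36 ± 0.17 (adjusted p = 0.183) in null and 0.10 ± 0.17 (adjusted p = 0.716) in control livers, and for Sec24c 0.02 ± 0.14 (adjusted p = 0.926) in null and 0.34 ± 0.14 (adjusted p = 0.0951) in control livers. Sec24b had the only difference above 0 between genotypes with tunicamycin among all 42 members, 0.15 ± 0.17 (adjusted p = 0.761).

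Sec23a and Sec23b encode alternative forms of the partner of Sec24, which activates the GTPase of Sar1. Sec23b measured 10.16, 11.14 and 10.28 in null tunicamycin and 11.85, 12.08 and 11.72 in control tunicamycin livers, and 10.19, 9.99 and 10.15 in null vehicle and 10.36, 10.26 and 10.19 in control vehicle livers. It was not called in null livers (0.42 ± 0.22, adjusted p = 0.234) and rose in control livers by 1.61 ± 0.22 (adjusted p = 0.000253), where the arrays did not overlap. Among the null tunicamycin arrays, replicate 2, which carried kidney transcripts, was the highest for Sec23b. With tunicamycin null livers were lower (-1.36 ± 0.22, adjusted p = 0.00419). Sec23a measured 12.22, 11.99 and 11.98 in null tunicamycin and 12.45, 12.42 and 12.34 in control tunicamycin livers, and 11.39, 11.50 and 11.78 in null vehicle and 11.37, 11.67 and 11.29 in control vehicle livers. It rose in both genotypes, by 0.51 ± 0.15 (adjusted p = 0.0396) in null and by 0.96 ± 0.15 (adjusted p = 0.00063) in control livers, and the difference between genotypes with tunicamycin was not called (-0.34 ± 0.15, adjusted p = 0.3). The call for Sec23a in null livers was lost in 5 of the 6 fits that left out 1 array.

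Both outer cage genes rose in control livers. Sec13 encodes a cage subunit that also serves in the nuclear pore, and measured 9.81, 9.94 and 9.64 in null tunicamycin and 10.36, 10.77 and 10.58 in control tunicamycin livers, and 10.11, 10.00 and 10.07 in null vehicle and 10.01, 9.89 and 10.05 in control vehicle livers. In null livers every tunicamycin array was below every vehicle array, with a difference that was not called (-0.26 ± 0.14, adjusted p = 0.239). Its rise in control livers was 0.59 ± 0.14 (adjusted p = 0.00944), and null minus control with tunicamycin was -0.78 ± 0.14 (adjusted p = 0.00833). Without control tunicamycin replicate 2 neither was called, at 0.49 and -0.67 (adjusted p = 0.0504 and 0.0549). Sec31a, the partner of Sec13 in the cage, measured 10.00, 10.26 and 9.84 in null tunicamycin and 11.01, 11.21 and 10.87 in control tunicamycin livers, and 10.24, 10.22 and 9.94 in null vehicle and 10.12, 10.14 and 10.33 in control vehicle livers. It stood at -0.10 ± 0.16 (adjusted p = 0.712) in null livers and was raised by 0.83 ± 0.16 (adjusted p = 0.00221) in control livers, and the genotypes differed with tunicamycin by -0.99 ± 0.16 (adjusted p = 0.00339).

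Of the 4 genes that start COPII assembly, 0 rose and 1 fell in null livers, 3 rose in control livers, and 3 were lower in null than in control livers with tunicamycin. Preb encodes Sec12, the ER exchange factor that loads Sar1 with GTP. It measured 10.89, 10.91 and 10.79 in null tunicamycin and 12.49, 12.14 and 11.97 in control tunicamycin livers, and 11.23, 10.40 and 10.82 in null vehicle and 10.67, 11.06 and 10.74 in control vehicle livers. The null response of Preb was 0.05 ± 0.21 (adjusted p = 0.908) and the rise in control livers 1.38 ± 0.21 (adjusted p = 0.000497), and null minus control with tunicamycin was -1.34 ± 0.21 (adjusted p = 0.00323). A second, dimmer probe set of Preb gave 0.73 in null and 2.91 in control livers, and the difference between the responses on it was -2.17 ± 0.27 (adjusted p = 0.0155 in a fit of all probe sets).

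Sec16a, a scaffold of ER exit sites, measured 10.20, 10.76 and 10.40 in null tunicamycin and 11.55, 11.59 and 11.36 in control tunicamycin livers, and 10.62, 10.49 and 10.59 in null vehicle and 10.38, 10.59 and 10.54 in control vehicle livers. The control tunicamycin arrays were clear of the other 9. The response was -0.12 ± 0.16 (adjusted p = 0.669) in null livers and a rise of 0.99 ± 0.16 (adjusted p = 0.000595) in control livers, and the difference between the responses was -1.11 ± 0.22 (adjusted p = 0.0425). With tunicamycin the null livers were lower (-1.05 ± 0.16, adjusted p = 0.00231).

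The Sar1 GTPases, whose insertion into the membrane starts coat assembly, are described next. Sar1a measured 9.91, 10.48 and 9.97 in null tunicamycin and 10.94, 11.32 and 11.22 in control tunicamycin livers, and 10.02, 10.23 and 10.25 in null vehicle and 10.25, 10.10 and 10.38 in control vehicle livers. Its response was -0.05 ± 0.17 (adjusted p = 0.892) in null livers, it rose in control livers by 0.91 ± 0.17 (adjusted p = 0.00239), and it was lower in null than in control livers with tunicamycin (-1.04 ± 0.17, adjusted p = 0.00495). Another probe set of Sar1a was not called in control livers (0.60, adjusted p = 0.145 in a fit of all probe sets). Sar1b, the form whose loss in humans impairs export of chylomicrons, measured 12.68, 12.49 and 12.27 in null tunicamycin and 12.57, 12.41 and 12.50 in control tunicamycin livers, and 12.99, 12.83 and 13.01 in null vehicle and 12.82, 12.98 and 12.88 in control vehicle livers. All tunicamycin arrays lay below all vehicle arrays in each genotype. The fall was called in null livers (-0.47 ± 0.14, adjusted p = 0.0377) and not in control livers (-0.40 ± 0.14, adjusted p = 0.0524), and the difference between the responses was -0.07 ± 0.19 (adjusted p = 0.984). That null call was lost in 4 of the 6 fits without 1 array.

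**Figure D3:**
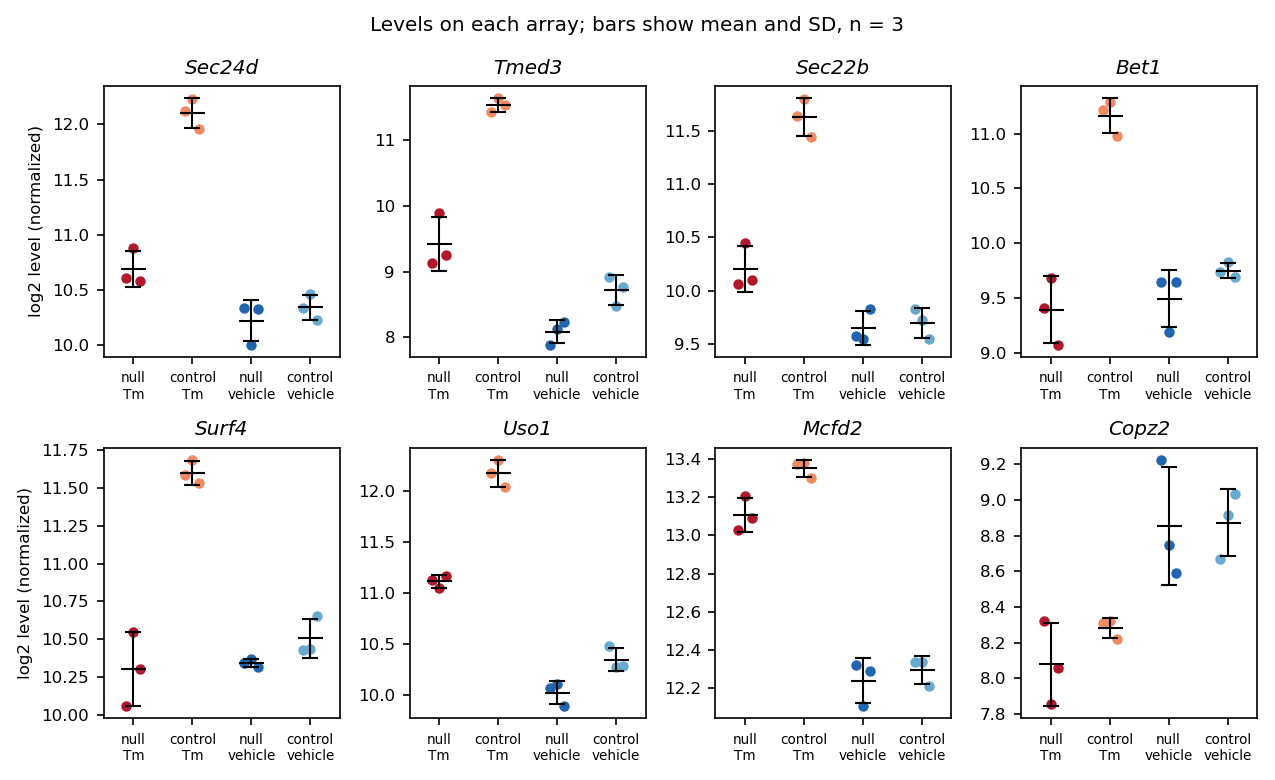
Log2 level on each array for 8 members in the 4 groups, with points for arrays and bars for the mean and SD (n = 3). Sec24d, Tmed3, Sec22b, Bet1 and Surf4 have control tunicamycin arrays above all others, Uso1 and Mcfd2 are higher with tunicamycin in both genotypes, and Copz2 is lower with tunicamycin in both.

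The 8 coatomer genes of the COPI coat gave 0 rises and 1 fall in null livers, 6 rises and 1 fall in control livers, and 6 lower levels in null than in control livers with tunicamycin. Cope encodes the epsilon subunit. It measured 10.45, 10.57 and 10.41 in null tunicamycin and 11.44, 11.64 and 11.52 in control tunicamycin livers, and 10.72, 10.48 and 10.51 in null vehicle and 10.69, 10.51 and 10.81 in control vehicle livers. The null response was -0.10 ± 0.13 (adjusted p = 0.679), and tunicamycin raised it by 0.86 ± 0.13 (adjusted p = 0.000595) in control livers. The genotypes differed with tunicamycin by -1.06 ± 0.13 (adjusted p = 0.000911) and in the size of the response by -0.95 ± 0.19 (adjusted p = 0.0425), the smallest of the 7 interaction differences that passed.

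Copg1, the gamma subunit, measured 8.97, 9.36 and 8.87 in null tunicamycin and 10.11, 10.72 and 10.14 in control tunicamycin livers, and 9.34, 9.18 and 9.25 in null vehicle and 9.43, 9.32 and 9.34 in control vehicle livers. Its control tunicamycin arrays lay above the rest. It stood at -0.19 ± 0.18 (adjusted p = 0.536) in null livers, rose by 0.96 ± 0.18 (adjusted p = 0.00241) in control livers, and was lower (-1.26 ± 0.18, adjusted p = 0.00219) in null livers with tunicamycin. Copb1, the beta subunit whose promoter holds the element, measured 10.53, 10.68 and 10.19 in null tunicamycin and 11.45, 11.57 and 11.30 in control tunicamycin livers, and 10.26, 10.19 and 10.53 in null vehicle and 10.57, 10.51 and 10.31 in control vehicle livers. The null response was 0.14 ± 0.16 (adjusted p = 0.616), the rise in control livers 0.98 ± 0.16 (adjusted p = 0.000951), and null minus control with tunicamycin -0.97 ± 0.16 (adjusted p = 0.00476). Arcn1, the delta subunit, measured 11.62, 11.67 and 11.62 in null tunicamycin and 12.25, 12.23 and 12.08 in control tunicamycin livers, and 11.51, 11.32 and 11.46 in null vehicle and 11.26, 11.49 and 11.25 in control vehicle livers. In null livers its tunicamycin arrays lay above the vehicle arrays, by 0.21 ± 0.13 (adjusted p = 0.301), which was not called. It rose by 0.86 ± 0.13 (adjusted p = 0.000398) in control livers. Null minus control with tunicamycin was -0.55 ± 0.13 (adjusted p = 0.0304), a call lost whichever of the 6 arrays was left out.

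Copb2, the beta' subunit, was not called with tunicamycin in control livers, yet was lower in null than in control livers with tunicamycin. It measured 9.86, 10.68 and 9.69 in null tunicamycin and 10.98, 11.39 and 10.93 in control tunicamycin livers, and 9.92, 10.26 and 10.49 in null vehicle and 10.76, 10.41 and 10.42 in control vehicle livers. Null tunicamycin replicate 2 was the highest of its group. The null response was -0.15 ± 0.25 (adjusted p = 0.742) and the control response 0.57 ± 0.25 (adjusted p = 0.123), and the genotypes differed with tunicamycin by -1.02 ± 0.25 (adjusted p = 0.044), a call lost in 5 of the 6 fits without 1 array. Copa, the alpha subunit, measured 11.66, 12.09 and 11.66 in null tunicamycin and 12.33, 12.39 and 12.24 in control tunicamycin livers, and 11.97, 11.64 and 11.63 in null vehicle and 11.89, 11.77 and 11.74 in control vehicle livers. The null response was not called (0.06 ± 0.15, adjusted p = 0.849), and Copa rose by 0.52 ± 0.15 (adjusted p = 0.0284) in control livers. The difference between genotypes with tunicamycin was not called (-0.52 ± 0.15, adjusted p = 0.102). That control call was lost in 4 of the 6 fits without 1 array.

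The zeta subunit has 2 genes, and in control livers Copz1 rose while Copz2 fell, a fall whose call was lost with array medians centred and with values as deposited. Copz1 measured 10.52, 10.77 and 10.56 in null tunicamycin and 11.29, 11.63 and 11.52 in control tunicamycin livers, and 10.48, 10.65 and 10.57 in null vehicle and 10.97, 10.57 and 11.02 in control vehicle livers. It was 0.05 ± 0.16 (adjusted p = 0.86) in null livers, rose by 0.62 ± 0.16 (adjusted p = 0.0115) in control livers, and was lower in null livers with tunicamycin (-0.86 ± 0.16, adjusted p = 0.00804). Without control tunicamycin replicate 2 neither was called, at 0.55 and -0.79 (adjusted p = 0.055 and 0.053). A dim second probe set of Copz1 was called neither in control livers nor between genotypes with tunicamycin (adjusted p = 0.996 and 1 in a fit of all probe sets). Copz2 measured 8.32, 7.86 and 8.06 in null tunicamycin and 8.31, 8.32 and 8.22 in control tunicamycin livers, and 9.23, 8.75 and 8.59 in null vehicle and 8.67, 8.92 and 9.03 in control vehicle livers. The tunicamycin arrays lay below the vehicle arrays in each genotype. Copz2 fell in null livers (-0.78 ± 0.18, adjusted p = 0.0138) and in control livers (-0.59 ± 0.18, adjusted p = 0.0357). Both calls, with the direction kept, were lost with array medians centred and with values as deposited, the control call also in 5 of the 6 fits without 1 array and the null call without null vehicle replicate 1 (-0.59, adjusted p = 0.0528).

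The 3 genes of the ARF cycle gave 0 calls in null livers and 3 rises in control livers, and 2 were lower in null than in control livers with tunicamycin. Arf4, a GTPase of the early Golgi, measured 11.50, 11.73 and 11.59 in null tunicamycin and 12.50, 12.56 and 12.32 in control tunicamycin livers, and 11.24, 11.31 and 11.02 in null vehicle and 11.41, 11.35 and 11.25 in control vehicle livers. All null tunicamycin arrays lay above both vehicle groups and below control tunicamycin, and the vehicle groups overlapped. The null response was 0.41 ± 0.13 (adjusted p = 0.0554), Arf4 rose by 1.12 ± 0.13 (adjusted p = 9.21e-05) in control livers, and null minus control with tunicamycin was -0.86 ± 0.13 (adjusted p = 0.00329). Gbf1 encodes the exchange factor that activates ARFs at the cis-Golgi and ER-Golgi intermediate compartment. It measured 8.72, 8.75 and 8.74 in null tunicamycin and 9.48, 9.78 and 9.50 in control tunicamycin livers, and 8.71, 8.62 and 8.54 in null vehicle and 8.69, 8.54 and 8.67 in control vehicle livers. Its null response was 0.12 ± 0.13 (adjusted p = 0.586), the rise in control livers 0.96 ± 0.13 (adjusted p = 0.00019), and the genotype difference with tunicamycin -0.85 ± 0.13 (adjusted p = 0.0024). Arf1, the GTPase that recruits coatomer, measured 12.59, 12.60 and 12.56 in null tunicamycin and 12.88, 12.94 and 12.82 in control tunicamycin livers, and 12.65, 12.49 and 12.42 in null vehicle and 12.52, 12.53 and 12.41 in control vehicle livers. The null response of Arf1 was 0.06 ± 0.12 (adjusted p = 0.763). It rose by 0.39 ± 0.12 (adjusted p = 0.0289) in control livers, a call lost whichever of the 6 arrays was left out, and the genotype difference with tunicamycin was -0.30 ± 0.12 (adjusted p = 0.237).

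The KDEL receptors return escaped ER chaperones from the Golgi, and 1 of the 2 that were tested was called. Kdelr2 measured 11.93, 11.87 and 11.88 in null tunicamycin and 12.72, 12.52 and 12.21 in control tunicamycin livers, and 12.37, 11.79 and 11.92 in null vehicle and 11.65, 12.11 and 11.64 in control vehicle livers. The null response of Kdelr2 was -0.14 ± 0.19 (adjusted p = 0.686), it rose in control livers by 0.68 ± 0.19 (adjusted p = 0.0221), a call lost in 4 of the 6 fits without 1 array, and null minus control with tunicamycin was -0.59 ± 0.19 (adjusted p = 0.138). Its second probe set gave larger differences, -1.62 ± 0.17 between genotypes with tunicamycin (adjusted p = 0.000561 in a fit of all probe sets) and -1.29 ± 0.24 between the responses (adjusted p = 0.0456). Kdelr1 was at -0.28 ± 0.21 (adjusted p = 0.416) in null and 0.39 ± 0.21 (adjusted p = 0.215) in control livers, neither called. Kdelr3, left out of the main test as too dim, measured 4.29, 5.11 and 4.32 in null tunicamycin and 6.70, 7.41 and 5.22 in control tunicamycin livers, and 4.29, 4.53 and 4.37 in null vehicle and 4.57, 4.39 and 4.54 in control vehicle livers. All 3 control tunicamycin arrays exceeded the other 9, and they differed widely among themselves. With dim probe sets kept, the null response of Kdelr3 was 0.17 ± 0.42 (adjusted p = 0.85), it rose by 1.94 ± 0.42 in control livers (adjusted p = 0.00651), and the genotype difference with tunicamycin was -1.87 ± 0.42 (adjusted p = 0.0351).

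The p24 proteins sort cargo into vesicles and cycle through the early secretory pathway. Of 7 genes 6 were tested, and 2 rose in null livers, 4 rose in control livers, and 3 were lower in null than in control livers with tunicamycin. Tmed3 measured 9.13, 9.88 and 9.24 in null tunicamycin and 11.43, 11.64 and 11.54 in control tunicamycin livers, and 7.89, 8.13 and 8.23 in null vehicle and 8.92, 8.47 and 8.77 in control vehicle livers. The 4 groups did not overlap, with control tunicamycin highest, then null tunicamycin, control vehicle and null vehicle. On the chosen probe sets Tmed3 had the largest rise of all members in each genotype, by 1.34 ± 0.20 (adjusted p = 0.000947) in null and by 2.81 ± 0.20 (adjusted p = 2.29e-06) in control livers. With tunicamycin null livers were lower (-2.11 ± 0.20, adjusted p = 0.000213), and the responses differed by -1.48 ± 0.29 (adjusted p = 0.0384). Tmed3 was also the member with the lowest p between genotypes with vehicle, where the difference was not called (-0.64 ± 0.20, adjusted p = 0.988).

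Tmed9 measured 10.88, 11.13 and 10.78 in null tunicamycin livers and lay between 11.71 and 12.12 in control tunicamycin livers, with 10.53, 9.84 and 10.12 in null vehicle and 10.27, 10.30 and 9.82 in control vehicle livers. The tunicamycin arrays exceeded vehicle in each genotype. It rose by 0.77 ± 0.20 (adjusted p = 0.0233) in null and by 1.81 ± 0.20 (adjusted p = 6.02e-05) in control livers, and the null call was lost in 3 of the 6 fits without 1 array. Null minus control with tunicamycin was -1.01 ± 0.20 (adjusted p = 0.0154), a call lost in 4 of the 6 fits without 1 array. Tmed5 measured 12.39, 12.12 and 12.43 in null tunicamycin and 12.66, 12.47 and 12.40 in control tunicamycin livers, and 11.84, 11.46 and 11.96 in null vehicle and 11.59, 11.98 and 11.41 in control vehicle livers. Its null response missed the threshold at 0.56 ± 0.18 (adjusted p = 0.0577), and it rose by 0.85 ± 0.18 (adjusted p = 0.00515) in control livers. The arrays of both genotypes overlapped with tunicamycin, with a difference of -0.20. Tmed7 measured 11.23, 11.38 and 11.29 in null tunicamycin and 11.69, 11.87 and 11.71 in control tunicamycin livers, and 11.17, 11.17 and 11.37 in null vehicle and 11.37, 11.43 and 11.28 in control vehicle livers. Its null response was 0.06 ± 0.12 (adjusted p = 0.772). Its rise in control livers, 0.40 ± 0.12 (adjusted p = 0.0338), was lost whichever of the 6 arrays was left out, and the genotype difference with tunicamycin was -0.46 ± 0.12 (adjusted p = 0.0651). Tmed10, the partner required for many p24 complexes, measured 9.42, 9.47 and 9.52 in null tunicamycin and 10.20, 10.42 and 10.29 in control tunicamycin livers, and 9.99, 9.65 and 9.78 in null vehicle and 9.73, 10.12 and 9.99 in control vehicle livers. With tunicamycin its arrays were above vehicle in control livers and below vehicle in null livers. Neither response was called (-0.34 ± 0.14 (adjusted p = 0.14) in null and 0.36 ± 0.14 (adjusted p = 0.0932) in control livers), and null livers were lower with tunicamycin (-0.83 ± 0.14, adjusted p = 0.00614). Tmed4 was not called, with -0.68 ± 0.17 (adjusted p = 0.0509) between genotypes with tunicamycin. The dim Tmed2 averaged 13.9 ± 2.93 in null and 16.2 ± 6.00 in control livers with tunicamycin, and 10.4 ± 4.81 in null and 11.2 ± 0.220 in control livers with vehicle, in deposited intensity units (SD, n = 3 each).

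Among the 7 cargo receptor genes, 1 rose and 2 fell in null livers, 4 rose in control livers, and 3 were lower in null than in control livers with tunicamycin. Surf4 encodes a receptor that exports lipoproteins and other soluble cargo. It measured 10.06, 10.55 and 10.30 in null tunicamycin and 11.59, 11.69 and 11.53 in control tunicamycin livers, and 10.34, 10.37 and 10.31 in null vehicle and 10.43, 10.43 and 10.65 in control vehicle livers. The control tunicamycin arrays stood alone at the top, and the null tunicamycin and null vehicle arrays overlapped. Surf4 had a null response of -0.04 ± 0.14 (adjusted p = 0.894), and rose by 1.10 ± 0.14 (adjusted p = 0.000184) in control livers. Null minus control was -1.30 ± 0.14 (adjusted p = 0.000527) with tunicamycin, and the responses differed by -1.13 ± 0.20 (adjusted p = 0.0285).

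Lman1 and Mcfd2 encode the 2 parts of the receptor that exports coagulation factors V and VIII. Mcfd2 measured 13.03, 13.20 and 13.09 in null tunicamycin and 13.37, 13.38 and 13.30 in control tunicamycin livers, and 12.32, 12.11 and 12.29 in null vehicle and 12.34, 12.34 and 12.21 in control vehicle livers. Both tunicamycin groups were above both vehicle groups. It rose by 0.87 ± 0.12 (adjusted p = 0.000598) in null and by 1.05 ± 0.12 (adjusted p = 6.91e-05) in control livers, and null minus control with tunicamycin was -0.24 ± 0.12 (adjusted p = 0.374). Lman1 measured 11.87, 11.66 and 11.64 in null tunicamycin and 12.46, 12.49 and 12.41 in control tunicamycin livers, and 11.75, 11.53 and 11.56 in null vehicle and 11.61, 11.71 and 11.66 in control vehicle livers. The null response of Lman1 was 0.11 ± 0.12 (adjusted p = 0.59), in control livers it rose by 0.79 ± 0.12 (adjusted p = 0.000571), and null minus control with tunicamycin was -0.73 ± 0.12 (adjusted p = 0.00505). The chosen probe set of Lman1 is of a type that can read several transcripts, and 3 others were not called in control livers (0.03, 0.08 and 0.37). The genotype call with tunicamycin was lost under 3 of 21 alternatives, the 2-fold threshold among them. Over the alternatives that difference was as small as -0.13, with limma adjusted p up to 0.898.

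Lman2, a lectin that binds cargo with high-mannose glycans, measured 9.97, 9.94 and 9.63 in null tunicamycin and 11.05, 11.08 and 10.76 in control tunicamycin livers, and 10.10, 9.74 and 10.31 in null vehicle and 10.47, 10.31 and 10.08 in control vehicle livers. It stood at -0.20 ± 0.18 (adjusted p = 0.499) in null livers, rose by 0.68 ± 0.18 (adjusted p = 0.0168) in control livers, a call lost in 3 of the 6 fits without 1 array, and was lower in null than in control livers with tunicamycin (-1.11 ± 0.18, adjusted p = 0.00394). The Ergic genes encode membrane proteins that cycle between ER and Golgi, and none of them rose. Ergic1 measured 8.60, 8.19 and 8.05 in null tunicamycin and 8.73, 8.25 and 8.24 in control tunicamycin livers, and 9.43, 8.75 and 9.20 in null vehicle and 8.76, 9.06 and 8.90 in control vehicle livers. Its tunicamycin arrays were below vehicle in each genotype, called in null livers (-0.84 ± 0.21, adjusted p = 0.0185) and not in control livers (-0.50 ± 0.21, adjusted p = 0.11). None of 4 other probe sets of Ergic1 was called in null livers, and 1 of them had a value above 0 (0.07). Ergic3 measured 9.27, 9.43 and 8.92 in null tunicamycin and 9.05, 9.45 and 9.61 in control tunicamycin livers, and 9.98, 9.97 and 9.73 in null vehicle and 9.83, 9.76 and 10.11 in control vehicle livers. It fell in null livers (-0.69 ± 0.19, adjusted p = 0.0264), as Ergic1 did, with calls lost in 4 (Ergic3) and 3 (Ergic1) of the 6 fits without 1 array, and the control value was -0.53 ± 0.19 (adjusted p = 0.0573), although 2 dimmer probe sets were called down in control livers (-0.66 and -0.73). Ergic2 was not called, at -0.45 ± 0.15 (adjusted p = 0.0651) in null and -0.07 ± 0.15 (adjusted p = 0.767) in control livers.

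The SNARE and tether genes gave 2 rises among 4 in null livers, 4 rises in control livers and 3 lower levels in null than in control livers with tunicamycin. Bet1, a SNARE of ER-to-Golgi fusion, measured 9.41, 9.69 and 9.08 in null tunicamycin and 11.21, 11.29 and 10.98 in control tunicamycin livers, and 9.64, 9.19 and 9.64 in null vehicle and 9.73, 9.82 and 9.69 in control vehicle livers. The null tunicamycin arrays lay within or below the vehicle range. In null livers Bet1 was at -0.10 ± 0.18 (adjusted p = 0.755), it rose by 1.41 ± 0.18 (adjusted p = 0.000152) in control livers, and the genotypes differed with tunicamycin by -1.77 ± 0.18 (adjusted p = 0.000335). The difference between the responses, -1.51 ± 0.26 (adjusted p = 0.0215), was the largest in size among the members on their chosen probe sets. A dimmer probe set of Bet1 was not called in control livers (0.97, adjusted p = 0.0625 in a fit of all probe sets).

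Sec22b, a SNARE that works in both directions between ER and Golgi, measured 10.06, 10.45 and 10.10 in null tunicamycin and 11.64, 11.80 and 11.44 in control tunicamycin livers, and 9.58, 9.55 and 9.83 in null vehicle and 9.83, 9.72 and 9.55 in control vehicle livers. The tunicamycin arrays exceeded the vehicle arrays in each genotype. It rose by 0.55 ± 0.16 (adjusted p = 0.0341) in null and by 1.93 ± 0.16 (adjusted p = 6.24e-06) in control livers, and the responses differed by -1.38 ± 0.22 (adjusted p = 0.0178). The call in null livers was lost in 4 of the 6 fits without 1 array. Null minus control with tunicamycin was -1.42 ± 0.16 (adjusted p = 0.00053). On another probe set of Sec22b the null response was 0.21 and not called.

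Uso1 encodes the tether p115, which holds vesicles at the cis-Golgi. It measured 11.13, 11.05 and 11.17 in null tunicamycin and 12.17, 12.31 and 12.04 in control tunicamycin livers, and 10.07, 10.11 and 9.90 in null vehicle and 10.48, 10.28 and 10.29 in control vehicle livers. The 4 groups did not overlap. Uso1 rose by 1.09 ± 0.13 (adjusted p = 0.000189) in null and by 1.82 ± 0.13 (adjusted p = 2.15e-06) in control livers, was lower in null livers with tunicamycin (-1.06 ± 0.13, adjusted p = 0.000752), and differed in response by -0.73 ± 0.18 (adjusted p = 0.115), which was not called. Golga2, encoding the matrix protein GM130 that binds p115, measured 8.76, 8.46 and 8.67 in null tunicamycin and 8.96, 8.96 and 8.79 in control tunicamycin livers, and 8.78, 8.43 and 8.42 in null vehicle and 8.35, 8.66 and 8.17 in control vehicle livers. Golga2 was at 0.09 ± 0.16 (adjusted p = 0.766) in null livers. It rose by 0.51 ± 0.16 (adjusted p = 0.0381) in control livers, a call lost in 5 of the 6 fits without 1 array, and was at -0.28 ± 0.16 (adjusted p = 0.468) between genotypes with tunicamycin.

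**Figure D4:**
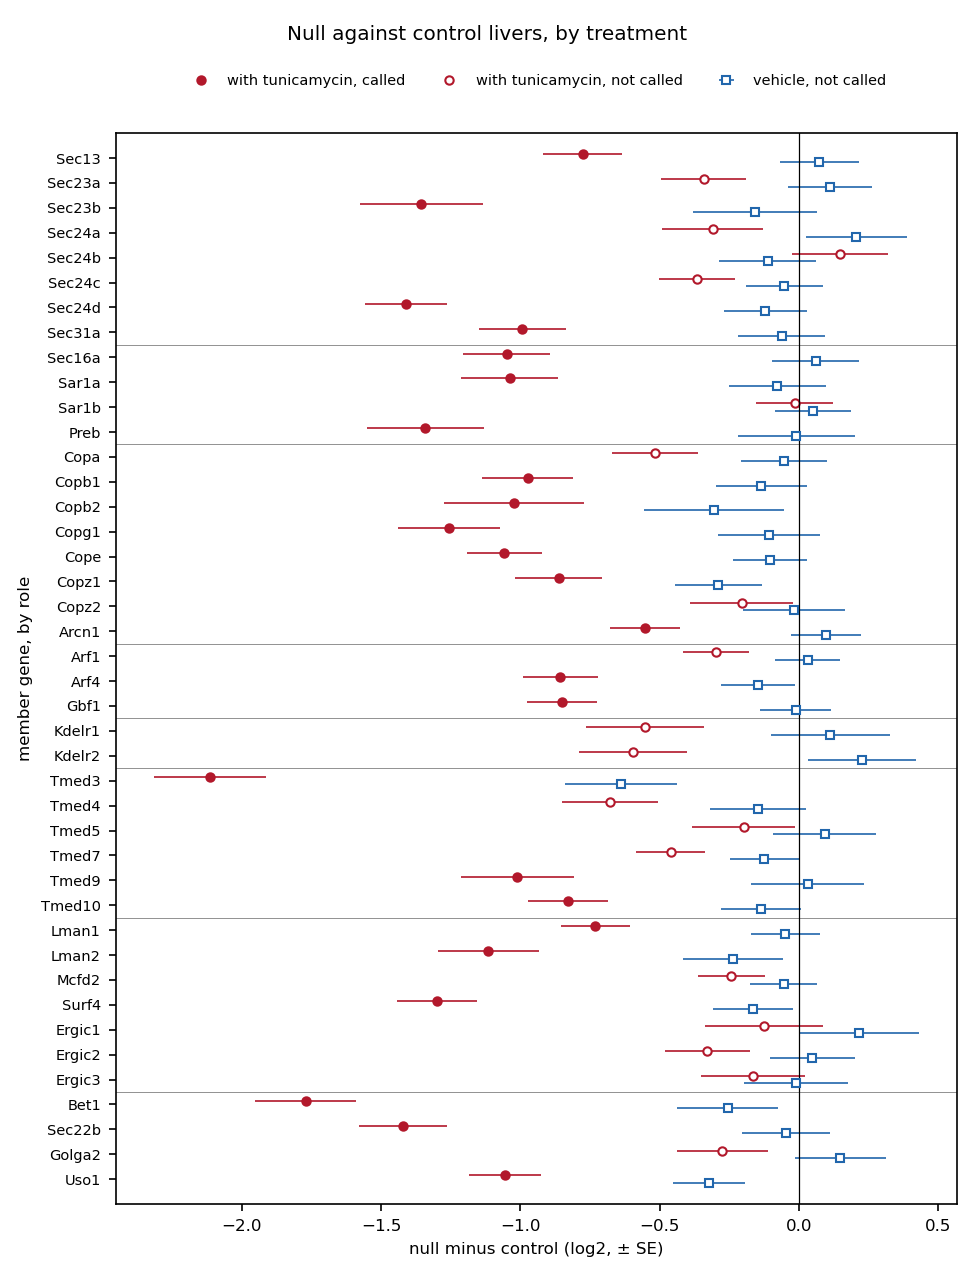
Null minus control livers (log2, bars of 1 SE) for the 42 tested members by role, as circles with tunicamycin (filled where called) and squares with vehicle. With tunicamycin 24 members are called, all below 0, and with vehicle 0 are.

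The probe sets not chosen were compared with those that were, in a fit of all probe sets with 1 symbol. For members called in null livers, 8 of 9 further probe sets above the filter had the same sign and 2 were called. For those called in control livers it was 32 of 33, with 20 called, and for those lower in null livers with tunicamycin 23 of 25, with 17 called. For the 7 interaction calls, all 7 further probe sets had the same sign, and 2 were called.

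A second list of ER-Golgi genes outside the set held 72 genes, of which 69 were on the array and 66 were tested. With tunicamycin 5 of them rose and 7 fell in null livers (median 0.04), shares near the 7.60% and 9.19% of all genes. In control livers 24 rose and 6 fell (median 0.32), where 11.6% and 13.3% of all genes did. The falls in null livers numbered 2 without the array that carried kidney transcripts, 2 with array medians centred, 1 with values as deposited, 3 without null vehicle replicate 1 or 3 and 4 without null tunicamycin replicate 3. The rises there numbered 3 without null vehicle replicate 1 or 2. Under either scaling 2 fell in control livers. With tunicamycin 17 were lower in null than in control livers (median -0.33) and 0 higher, against 3.23% and 0.762% of all genes. With vehicle 0 were called, and 5 had a called interaction below 0 (0.824% of all genes). The 17 became 9 without control tunicamycin replicate 2. The 5 became 1 without control tunicamycin replicate 1 or 2 or control vehicle replicate 3, 2 without null tunicamycin replicate 1 or 3 or any 1 null vehicle array, 3 without control vehicle replicate 1 or 2, and 2 with values as deposited or with the replicate block. Stx5a, the SNARE partner of Bet1 and Sec22b, rose by 0.88 ± 0.13 (adjusted p = 0.000679) in null and by 2.22 ± 0.13 (adjusted p = 3.79e-07) in control livers, and the responses differed by -1.33 ± 0.18 (adjusted p = 0.00798). Arf2, a further ARF, rose by 1.19 ± 0.21 (adjusted p = 0.00256) in null and by 2.33 ± 0.21 (adjusted p = 1.22e-05) in control livers. Yipf5, a membrane protein of the ER-Golgi boundary, was 0.15 ± 0.15 (adjusted p = 0.552) in null livers and rose by 1.48 ± 0.15 (adjusted p = 2.29e-05) in control livers. The responses differed by -1.33 ± 0.21 (adjusted p = 0.0149). Scfd2, a Sec1 family gene, was lower in null than in control livers with tunicamycin (-1.27 ± 0.17, adjusted p = 0.0015). Gosr2, a Golgi SNARE, had a difference between the responses of -1.10 ± 0.20 (adjusted p = 0.0297). Trappc1, a subunit of the TRAPP tethering complexes, fell in null livers (-1.14 ± 0.14, adjusted p = 0.000201) and in control livers (-0.82 ± 0.14, adjusted p = 0.000977).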

How the data were processed

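Liver RNA of 12 mice, 3 in each group, was measured on Affymetrix arrays of 45101 probe sets. The authors deposited 1 intensity per probe set, on a linear scale. The sources used here do not say how probes were summarised, scaled or filtered. Since array means differ, no normalization between arrays was assumed. Symbols came from the platform annotation: 34945 probe sets had 1 gene symbol, 932 several and 9160 none, and only those with 1 were used, without the 64 control probe sets. A lookup by gene ID in RefSeq changed 0 symbols.

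After log2(intensity + 16), arrays were quantile normalized (R 4.3.3, limma 3.58.1, and version 1.17.8 of data.table). Probe sets in the dimmest 30% by mean were dropped, and the brightest probe set stood for its gene, which left 14569 genes. All 12 arrays entered 1 lmFit model of group means, with 5 contrasts and eBayes (8 residual degrees of freedom), and p values were adjusted by Benjamini-Hochberg over all genes. The procedure was tested on simulated data. Python 3.11.15 with pandas 2.3.3 and matplotlib 3.10.9 drew the figures.

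Every member is named by role, with full values where it was called in at least 1 contrast, and the second list by counts and by up to 3 members with the smallest adjusted p per contrast. Members, lists and alternatives were chosen with earlier results of these data known. Alternatives changed the pseudocount, the filter, the scaling, the choice of probe set, the eBayes options, the array weights, a replicate block, a 2-fold threshold, the groups fitted, RNA integrity covariates and single arrays. The labels link no replicate number across groups, so the arrays were not treated as paired. Of 18 same-numbered pairs of arrays, 5 had deviations that correlated above 0.1 (range -0.411 to 0.49). Differently numbered pairs ranged between -0.449 and 0.366. These correlations do not settle whether the numbers mark a pairing. Replicates are labelled biological, without further detail on the animals.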

Additional observations from a re-analysis of the deposited data

Results flagged for a closer look

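The tunicamycin response differed between genotypes for 7 members by a test of the difference itself, the limma interaction with Benjamini-Hochberg adjustment over 14569 genes. The difference, null response minus control response on the log2 scale, was -1.51 for Bet1, -1.48 for Tmed3, -1.38 for Sec22b, -1.29 for Sec24d, -1.13 for Surf4, -1.11 for Sec16a and -0.95 for Cope. Adjusted p values ran between 0.0175 for Sec24d and 0.0425 for Cope and Sec16a. For each of the 7 the control tunicamycin arrays lay above all other arrays. These are the same values that the test used, so this adds no support to the calls. The same order was seen for members without a called interaction, such as Copg1 and Gbf1. Of the 7 calls, 0 held under every alternative.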

How the results depend on the processing

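No member's difference that was called in the main fit changed sign under any alternative. Differences not called there were not checked for sign. Leaving aside the 2-fold threshold, calls held under every alternative for 3 of 11 members in null livers, 20 of 31 in control livers, 17 of 24 between genotypes with tunicamycin and 0 of 7 in the interaction. The number of members called ranged over single arrays left out between 4 and 8 in null livers, between 22 and 28 in control livers, between 19 and 25 for null against control with tunicamycin, and between 0 and 9 for the interaction. With vehicle it was 0 in each case. The calls over all genes ranged in these fits between 1611 and 2185 in null livers and between 2582 and 3313 in control livers. They ranged between 277 and 527 for null against control with tunicamycin, and between 14 and 127 for the interaction.

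With a 2-fold threshold the counts were 2 in null livers (6.05% of all genes), 11 in control livers (9.71%) and 15 between genotypes with tunicamycin (2.01%). In null livers 3 members were called when only the groups compared were fitted (10.2% of all genes), and 4 once the actin ratio was a covariate (12.4%). Interaction calls numbered 4 with a pseudocount of 1, 14 with one of 64, 11 with probe sets averaged per gene, 15 with array quality weights and 4 with the actin ratio. The interaction calls over all genes numbered 70, 186, 116, 225 and 65 in the same order. The causes were not tested. With the replicate number as a block, 7 members were called in null livers (4 rises and 3 falls), 29 in control livers, 22 between genotypes with tunicamycin, 0 with vehicle and 2 in the interaction. The shares of all genes were 14.7%, 23.1%, 3.03%, 0.00686% and 0.405% in that order. The replicate numbers are shared by label only, and 6 of 12 arrays correlated best with another of their own number. That count does not settle whether the numbers mark a pairing.

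Scaling moved the median response of all genes. In null livers it was -0.07 on the quantile scale, 0.01 once medians were centred and 0.08 for values left as deposited, and in control livers -0.11, -0.01 and 0.01. The members' median moved too, at 0.04, 0.17 and 0.25 in null livers and 0.81, 0.99 and 1.01 in control livers. Dim members such as Kdelr3 and Tmed2 are limited by signal over background.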
